A study of Mus musculus with 661 samples.

Results

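Stem cell factor (SCF) and CXCL12 are the main signals by which the bone marrow stroma keeps hematopoietic stem cells (HSC) in place and alive. SCF is the product of *Kitl* and acts on the receptor KIT of HSC and progenitors, either bound to the stromal membrane or cut from it by proteases. CXCL12 is a chemokine that holds HSC in the marrow through the receptor CXCR4, whereas the atypical receptor ACKR3 takes up CXCL12 without G protein signaling and so lowers the amount around the cell. Perivascular mesenchymal cells that carry LEPR, and endothelial cells, are known sources of both ligands in the marrow.

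Levels of the 4 genes *Kitl*, *Cxcl12*, *Cxcr4* and *Ackr3* are described here, chosen by their symbols as the SCF and CXCL12 axis from the 45808 genes counted. Each of the 4 was found once in the count table. *Kitl* lies on chromosome 10 from 100015630 to 100100416 (ENSMUSG00000019966, plus strand), *Cxcl12* on chromosome 6 from 117168535 to 117181367 (ENSMUSG00000061353, plus strand), *Cxcr4* on chromosome 1 from 128588199 to 128592293 (ENSMUSG00000045382, minus strand) and *Ackr3* on chromosome 1 from 90203980 to 90216751 (ENSMUSG00000044337, plus strand) of GRCm38, and no other gene of the annotation overlaps them.

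Young and old wild-type C57BL/6 mice gave 6 stromal populations, all gated as Ter-119 and CD45 negative, whose cells were sequenced singly by a modified Smart-Seq2 protocol on plates. From the endosteum came MSC-S (CD31-, Sca-1+, CD51+), multipotent osteoprogenitors (mOPr, PDGFRα+ and LepR-), osteoprogenitors (OPr, PDGFRα- and LepR-) and AEC, endothelial cells with high Sca-1 and low CD105. From the central marrow came MSC-L (Sca-1-, PDGFRα+, LepR+) and SEC, endothelial cells with low Sca-1 and high CD105. For these plates the paper describes the marrow endothelial cells as mostly SEC by index sorting. It describes the endosteal ones as dominated by AEC, so both sorts may be mixed. A gate sets surface protein, so differences in these proteins between populations come from the sort, and transcripts of gated-out cell types can still be found.

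The labels gave 336 young and 325 old cells. They numbered, young and old, 53 and 58 MSC-L, 59 and 59 MSC-S, 44 and 29 OPr, 26 and 26 mOPr, 84 and 82 AEC, and 70 and 71 SEC. Nuclear gene counts per cell ranged from 57517 to 1488549, with a median of 416359. The deepest population at the median was old OPr (775426) and the shallowest old SEC (302201). The cells came from several mice, but the labels do not name the mouse of a cell, so each age of a population was treated as 1 sample, and no test between groups was made. Levels are CPM of the summed nuclear counts of a group, with exact Poisson 95% intervals. Reads of a PCR product are not independent molecules, so all intervals cover counting error only, not the spread between mice.

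Markers of each population were checked first. The 10 endothelial markers summed to 10786 CPM in young AEC and 10842 CPM in young SEC, against 107 CPM in young MSC-L. The 7 arterial markers stood at 2902 CPM in young AEC and 315 CPM in young SEC, and the 6 sinusoidal markers at 1001 and 14791 CPM. In old AEC and SEC the arterial markers stood at 3289 and 1111 CPM, and the sinusoidal markers at 412 and 11469 CPM. The LepR+ stroma list (*Lepr*, *Adipoq*, *Ebf3*, *Lpl*, *Gas6*, *Hp*) reached 19882 CPM in young and 14524 CPM in old MSC-L. These endothelial and LepR+ stroma lists fit the sorted names, but they hold genes of gated proteins, such as *Lepr* and *Ly6a* (Sca-1). Part of the fit was therefore set by the sort. *Ly6a* gave 1494 of the 2902 CPM of arterial markers in young AEC and 208 of the 315 CPM in young SEC. Other values departed from the names. The LepR+ stroma list rose from 2155 CPM in young to 7984 CPM in old OPr and from 733 to 5914 CPM in mOPr, both gated as LepR-. The 6 osteolineage markers summed to 8671 CPM in young MSC-L, 2462 CPM in young OPr and 2122 CPM in young mOPr. *Ibsp* gave 8012, 1161 and 699 CPM of these, and the rest of the list was lowest in young MSC-L. In old MSC-L, OPr and mOPr the list summed to 3440, 1550 and 3617 CPM, so the order of MSC-L and mOPr turned with age. In old OPr, 8 of 29 cells carried at least 7 of 15 hematopoietic markers at 10 CPM or more, and the hematopoietic list summed to 11246 CPM there, led by *S100a9*, against 25.3 CPM in young OPr.

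*Kitl* was highest in MSC-L, followed by AEC. MSC-L stood at 1787 CPM (1769 to 1804) in young and 1672 CPM (1654 to 1690.0) in old cells, AEC at 501 CPM (493 to 508) and 493 CPM (485 to 500.2), and SEC at 119 CPM (115 to 124) and 169 CPM (164 to 175). OPr had 156 CPM (152 to 161) in young and 456 CPM (447 to 465) in old cells, mOPr 10.4 CPM (8.83 to 12.2) and 447 CPM (435 to 458), and MSC-S 18.7 CPM (17.3 to 20.2) and 8.73 CPM (7.83 to 9.70). In the order of the 12 groups, young and old AEC had overlapping counting intervals, as did old OPr and old mOPr, and young mOPr and old MSC-S. The counting intervals of all other neighbours did not overlap, which says nothing of the spread between cells or mice.

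The spread between single cells set these groups apart further. In young MSC-L the lowest cell had 1.497 CPM of *Kitl*, the median cell 1624 and the highest 6385. In old MSC-L the median cell was lower, at 1091 CPM, and the highest was higher, at 9002, while the summed level moved little. That small change joined opposite ones, from 1943 to 1005 CPM in library-number range 1 and from 1699 to 2035 CPM in range 2. The coefficient of variation (CV) of the CPM over cells was 0.599 in young and 1.02 in old MSC-L. AEC ranged from 0 to 2403 CPM in young and 2761 CPM in old cells, with medians of 357 and 429. The median SEC had no count of *Kitl* at either age, although single SEC reached 1010.3 and 1462 CPM.

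*Cxcl12* was found in every population. MSC-L had 48750.1 CPM (48659.5 to 48841) in young and 39599 CPM (39511 to 39688) in old cells, which was above every other group. In endothelium, SEC had 5519 CPM (5487 to 5549.7) and 3570.5 CPM (3545 to 3596), and AEC 2343 CPM (2327 to 2359) and 2855 CPM (2838 to 2873). OPr had 4525 CPM (4501 to 4549.9) in young and 19709 CPM (19649.9 to 19769) in old cells, and mOPr 552 CPM (540.5 to 565) and 18595 CPM (18519.6 to 18671), so that old cells of both lay next below MSC-L. MSC-S was lowest among old groups at 847 CPM (838 to 856) and lowest of all in young at 297 CPM (291 to 302). No pair of neighbours in this order had overlapping counting intervals.

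Per cell, *Cxcl12* ran from 1374 over a median of 52431 to 74717 CPM in young MSC-L and from 2649.6 over 38608 to 65534 CPM in old MSC-L. In every other population, both ages together, the lowest cell had no count, while the highest reached 18790.6 CPM in MSC-S, 27508 in AEC, 44916 in SEC, 64615 in OPr and 68229.7 in mOPr. The median cell had 859 CPM in young and 1665 CPM in old AEC, but only 79.1 and 56.4 CPM in SEC, so the typical AEC had more *Cxcl12* than the typical SEC although the summed level was lower. A single cell held 81.3% of the counts of young mOPr, and another 47.7% of those of old MSC-S. The median MSC-S had 102 CPM in young and 44.9 CPM in old, an order opposite to that of the summed levels. Per length of the annotated exons, both ages together, *Cxcl12* stood at 5447 CPM per kb and *Kitl* at 293 CPM per kb in MSC-L, and at 318 and 84.05 CPM per kb in AEC.

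*Ackr3* had nearly the reverse order among mesenchymal cells. MSC-S were highest at 751 CPM (741 to 759.8) in young and 1226 CPM (1215 to 1237) in old cells, and MSC-L lowest of all groups at 0.658 CPM (0.368 to 1.08) and 1.74 CPM (1.21 to 2.44). mOPr had 445 CPM (435 to 456) and 93.8 CPM (88.5 to 99.3), and OPr 37.3 CPM (35.1 to 39.5) and 258 CPM (252 to 265). In endothelium, AEC stood at 255 CPM (249 to 260.0) and 275 CPM (269 to 281), and SEC at 14.7 CPM (13.2 to 16.4) and 15.9 CPM (14.2 to 17.7). Counting intervals overlapped between old OPr and young AEC and between young and old SEC, and between no other neighbours. The cells that make most *Cxcl12* therefore had almost no transcript of its scavenger receptor, and the cells with most of that receptor had little *Cxcl12*. Over the 12 groups, whose depth and library ranges also differ, Pearson's r of log2(CPM + 1) was -0.77 between *Ackr3* and *Cxcl12*, -0.69 between *Ackr3* and *Kitl* and 0.88 between *Cxcl12* and *Kitl*.

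Single MSC-S ranged from 0 over a median of 317 to 3522 CPM of *Ackr3* in young and from 0 over 682 to 3440.5 CPM in old. The old OPr value rested on 1 cell with 80.6% of its counts, the old mOPr value on 1 cell with 76.3% and the young SEC value on 1 cell with 82.7%. The median cell had no *Ackr3* count in those 3 groups, nor in old SEC and young OPr, where 1 cell each held 43.8% and 35.8% of the counts.

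*Cxcr4*, the signaling receptor, was scarce in stroma. No count was found in 53 young MSC-L, which by a floor of 3 cells allows a share of cells with a count, not of cells that express the gene, of up to 5.66%. Old MSC-L had 0.513 CPM (0.246 to 0.943), young and old MSC-S 0.492 CPM (0.287 to 0.788) and 0.562 CPM (0.352 to 0.85), and young and old mOPr 0.0686 CPM (0.00174 to 0.382) and 0.24 CPM (0.0496 to 0.702). Young OPr had 0.0682 CPM (0.00826 to 0.246) and young SEC 0.0912 CPM (0.011 to 0.329). Counting intervals overlapped among most of these low groups. Only old OPr at 89.6 CPM (85.6 to 93.7), old SEC at 16.1 CPM (14.4 to 17.9), young AEC at 14.4 CPM (13.2 to 15.7) and old AEC at 2.49 CPM (2.00 to 3.08) stood above 1 CPM, and the intervals of old SEC and young AEC overlapped. In old OPr, 9 of 29 cells had *Cxcr4* at 10 CPM or more, and 7 of those 9 carried at least 7 hematopoietic markers and held 1913 of 1915 counts. In old SEC, a single cell with 10 hematopoietic markers and 1 of 10 endothelial markers held 94.9% of the counts. The 14 AEC with *Cxcr4* at 10 CPM or more each carried at most 4 of the hematopoietic markers and at least 8 of the 10 endothelial markers.

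**Figure D1:**
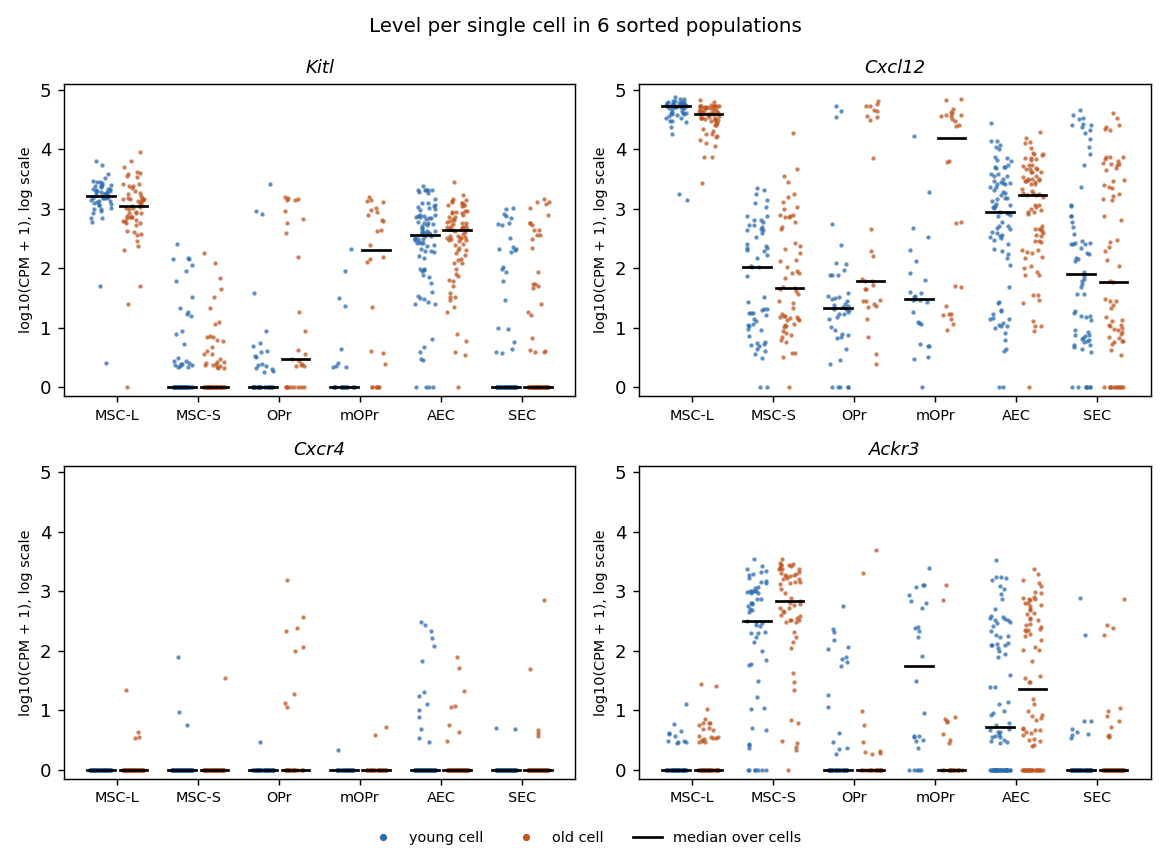
Level per single cell, as log10(CPM + 1), of the 4 genes in 6 sorted populations, with points for young (blue) and old (orange) cells and black bars for the median over cells. *Cxcl12* forms a tighter band in MSC-L than in AEC and SEC, *Kitl* is spread widely in AEC, SEC and old MSC-L, *Ackr3* is near 0 in MSC-L and high in MSC-S, and few cells have *Cxcr4*.

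The endothelial comparison asked how AEC and SEC differ in the axis. All SEC carry library numbers of the third of 3 separate ranges, so AEC of that range alone were set beside them, 24 young and 23 old cells. *Kitl* was at 575 CPM in these young AEC against 119 CPM in young SEC, and at 599 against 169 CPM in old cells, log2 ratios of 2.27 (2.20 to 2.34) and 1.82 (1.76 to 1.89). *Ackr3* was at 222 against 14.7 CPM and at 295 against 15.9 CPM, log2 ratios of 3.91 (3.74 to 4.09) and 4.22 (4.05 to 4.39). A single cell held 42.1% of these counts in young AEC, 42.7% in old AEC, 82.7% in young SEC and 43.8% in old SEC. Over the alternatives tried, the log2 ratio of CPM + 1 ran from 3.54 to 7.95 in young and from 3.35 to 7.80 in old cells. AEC were thus higher in SCF transcript and in the scavenger receptor at both ages. *Cxcl12* was lower in AEC, at 1682 against 5519 CPM in young cells, a log2 ratio of -1.71 (-1.74 to -1.69). In old cells it was nearly equal, at 3114 against 3570.5 CPM, a log2 ratio of -0.20 (-0.22 to -0.17).

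Of the members, 3 passed 2-fold in each age, among 3 that had at least 100 counts in 5 or more cells in young and 4 in old. In the same comparison 42.2% of 11908 genes passed 2-fold in young and 42.9% of 12082 in old cells. In old cells the members past 2-fold include *Cxcr4*, where AEC of this range had no count and the cell named above held 317 of the 334 counts of SEC.

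The *Cxcl12* of SEC was held by few cells. Of young SEC, 9 cells (12.9%) lay in cluster E1, a cluster of the study's ICGS method that it names doublets, and they held 82.2% of the *Cxcl12* and 74.5% of the *Kitl* counts. Of old SEC, 4 cells in E1 held 51.5% and 32.04%. Without E1, *Cxcl12* was at 1153 CPM in young and 1852 CPM in old SEC, and *Kitl* at 35.8 and 123 CPM. This choice was made after the data were seen. The direction of the *Cxcl12* ratio of AEC over SEC turned with it at both ages, from -1.71 to 0.54 in young and from -0.20 to 0.75 in old cells. Without the 7 young and 3 old SEC that carried at least 7 of 12 mesenchymal markers at 10 CPM or more, *Cxcl12* was at 2266 and 2485 CPM.

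Cells of E1 carried both endothelial and LepR+ stroma transcripts. The 14 cells had the 10 endothelial markers at a sum of 4929 CPM, the 12 mesenchymal markers at 9717 CPM, led by *Bgn*, and the LepR+ stroma list at 12804 CPM, led by *Hp*, with none of the 6 genes of that list or of the mesenchymal list at 0. *Cxcl12* counts per count of the LepR+ stroma list were 2.31 in E1, 2.56 in MSC-L, 2.87 in E3, 2.91 in E5, 9.26 in E4 and 1.36 in E7, the SEC-like cluster. Per count of *Lepr* alone they were 9.65 in E1, 13.9 in MSC-L, 25.3 in E3, 130 in E5, 69.7 in E4 and 6.49 in E7. The list was led by *Gas6* in E3 and by *Lpl* in E5, where *Lepr* stood at 48.1 and 32.8 CPM. The median depth of E1 cells was 367159 nuclear counts, against 307689 in E7. By number of mesenchymal markers, *Cxcl12* in young SEC was at 55.6 CPM in 31 cells with at most 1 marker, 876 CPM in 27 cells with 2 or 3, 22115 CPM in 5 cells with 4 to 6 and 29559 CPM in 7 cells with more. In old SEC it was at 1340.4, 1419, 12831 and 26508 CPM in 35, 26, 7 and 3 cells. The median cell with at most 1 marker had 6.56 CPM in young and 12.6 CPM in old SEC, and that with 2 or 3 markers 253 and 82.8 CPM, so in cells with 2 or 3 markers the order of the ages turned with the measure. In young AEC *Cxcl12* was at 1302, 2715 and 2145 CPM, and in old AEC at 2866, 2808 and 3085 CPM in cells with at most 1, 2 or 3, and 4 to 6 markers. The 2 AEC of each age with more had 11946 CPM in young, where 1 of them lay in E1, and 1743 CPM in old. The part of mesenchymal RNA in the endothelial levels was not tested beyond these values.

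**Figure D2:**
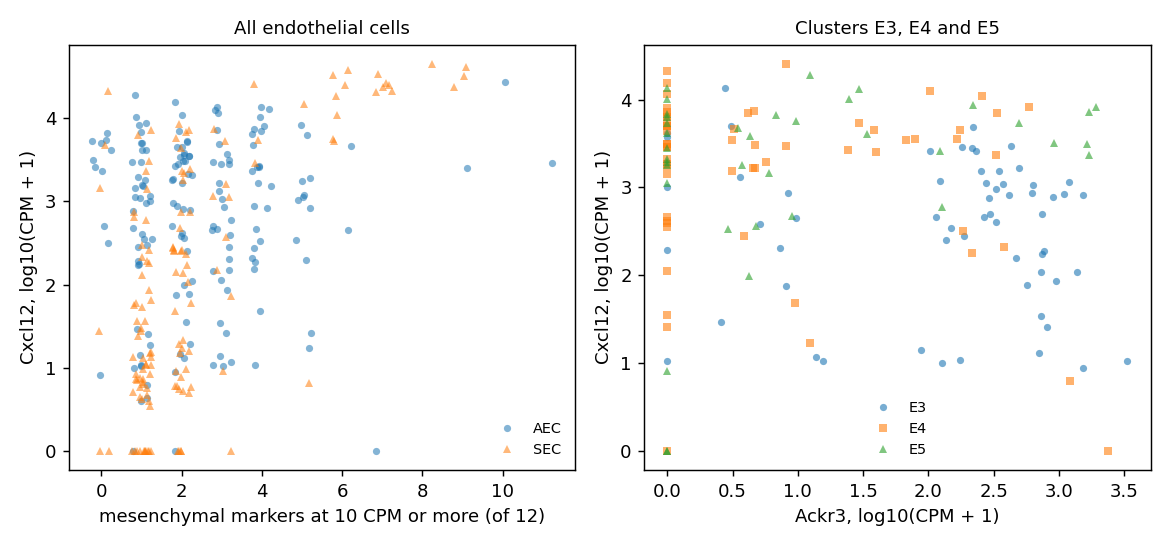
Left, *Cxcl12* as log10(CPM + 1) against the number of 12 mesenchymal markers per cell for AEC (circles) and SEC (triangles), and right, *Cxcl12* against *Ackr3* on the same scale in cells of clusters E3, E4 and E5. SEC with 7 or more markers all lie near the top of the scale, and some AEC and some old SEC reach high *Cxcl12* with few such markers.

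Over the endothelial clusters *Kitl* was higher in E3 to E5 than in E6 and E7, and the other genes had orders of their own. *Kitl* and *Ackr3* were among the genes that the study used to build them, and *Kitl*, *Cxcl12* and *Ackr3* guided the mesenchymal clusters, so these levels are a description. *Kitl* was at 479 CPM (471 to 488) in E3 and 466 CPM (457 to 474) in E4, both AEC-like, 796 CPM (779.6 to 813) in E5, which the study names arterial, 89.8 CPM (83.3 to 96.7) in the transition cluster E6 and 24.5 CPM (22.8 to 26.2) in the SEC-like E7. A count was found in 59 of 60 cells of E3, 59 of 59 of E4, 37 of 37 of E5, 17 of 24 of E6 and 20 of 105 of E7. The 7 arterial markers summed to 4261 CPM in E3, 2851 in E4 and 2737 in E5, so E5 was not set apart from the AEC-like clusters by more of them.

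*Cxcl12* in E3 was 1217 CPM (1203 to 1229.8), below E4 at 4153 CPM (4129 to 4178) and E5 at 4274 CPM (4236 to 4312). E6 had 793 CPM (774 to 813) and E7 1007 CPM (996 to 1018), where the median cell had 23.4 CPM and the highest 18612. *Ackr3* took the opposite order among the AEC-like clusters, at 450.4 CPM (442 to 458) in E3 and 109 CPM (105 to 113) in E4. It was at 283 CPM (274 to 293) in E5, 60.7 CPM (55.4 to 66.4) in E6 and 0.413 CPM (0.22 to 0.707) in E7, with no count in the 14 cells of E1. Of the 2 AEC-like clusters the one with more scavenger receptor thus had less of the ligand, which is a difference between clusters and not between single cells. *Cxcr4* was at 10 CPM or more in 8 of 55 young and 7 of 65 old cells of E4 to E6, clusters joined after its values were seen, and 1 of those 7 was the old SEC with 10 hematopoietic markers. In the other clusters it was so in 1 of 99 young and 0 of 88 old cells, where the same floor allows a share of cells at this level of up to 3.41%.

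**Figure D3:**
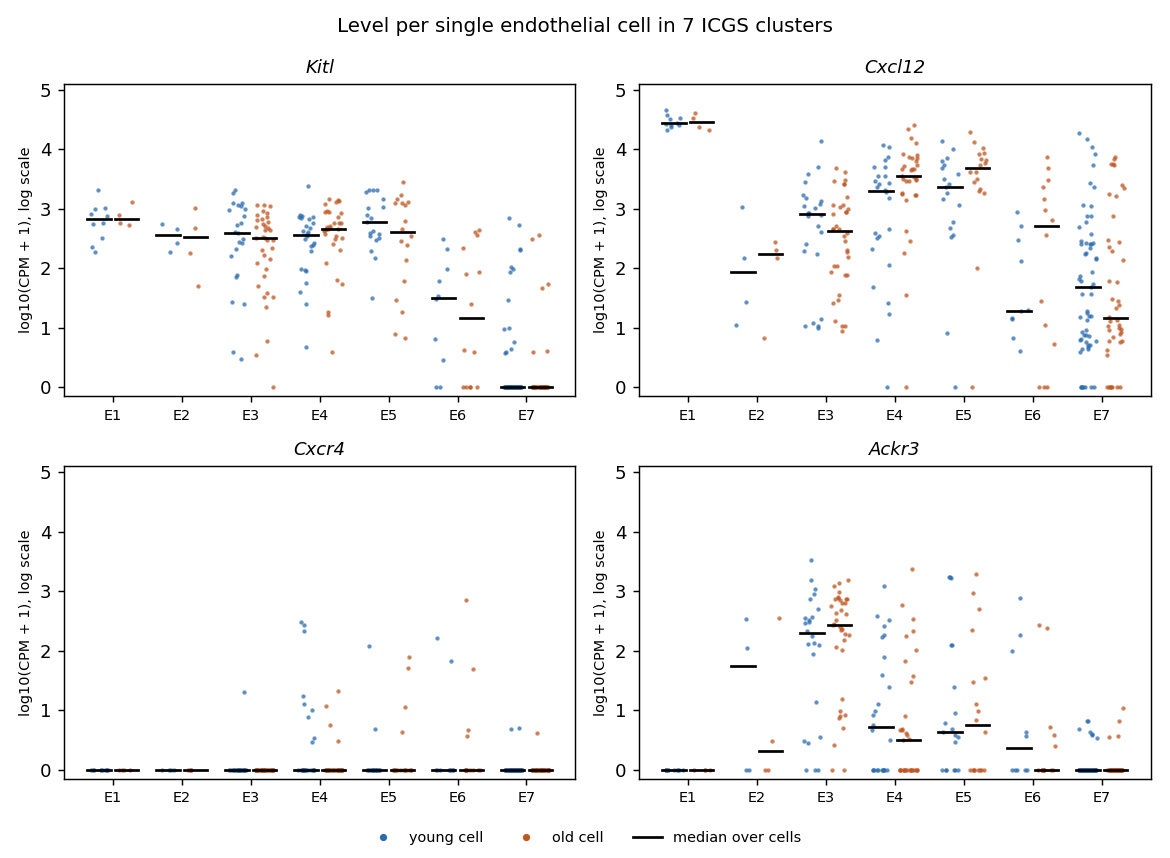
Level per single endothelial cell, as log10(CPM + 1), of the 4 genes in ICGS clusters E1 to E7, with young cells in blue, old cells in orange and black bars for the median. *Kitl* falls to a median of 0 in E7, *Cxcl12* is highest in E1, and *Ackr3* has its highest median in E3.

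The CV of each gene was set beside the median CV of all genes with a mean level from 0.5 to 2 times its own in the same cells. In AEC, *Kitl* varied as such genes do, with a CV of 1.09 against 1.10 over 477 genes in young and 0.945 against 1.08 over 519 in old cells. *Cxcl12* varied more, with 1.68 against 1.01 over 60 genes and 1.28 against 0.827 over 49, and so did *Ackr3*, with 2.31 against 1.39 and 1.70 against 1.31. In SEC the CV of *Cxcl12* was 2.19 against 0.477 in young and 2.22 against 0.751 in old cells, above each of the 23 and 31 genes of like level. Within E7 alone, without E1, it was 2.74 against 0.717, again above all 160 genes. In MSC-L the CV of *Cxcl12* was only 0.316 in young and 0.409 in old cells, where only 1 and 2 other genes were of like level. Endothelial *Cxcl12* was thus uneven from cell to cell while that of MSC-L was even.

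Detection depends on depth, so shares of cells with a count were also taken after each cell was thinned to 100000 nuclear counts, which left out 2 old MSC-L, 1 young and 2 old OPr, 1 young AEC and 1 old SEC. *Kitl* was found in 95.2% of young and 98.8% of old AEC (91.6% and 98.8% after thinning), and in 35.7% and 39.4% of SEC (30% and 35.7%). *Ackr3* was found in 64.3% and 73.2% of AEC (49.4% and 59.8%) and 12.9% and 16.9% of SEC (11.4% and 12.9%). In AEC of range 3 alone, the range of the SEC, *Kitl* was found in 83.3% of young and 100% of old cells (82.6% and 100%), and *Ackr3* in 50% and 60.9% (43.5% and 47.8%).

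Ligands and receptors were then followed in the same cells. Of 166 AEC, 142 had both *Kitl* and *Cxcl12* at 10 CPM or more and 4 had neither, with a Spearman rho of 0.42 over cells (0.44 in 165 thinned cells). *Cxcl12* and *Ackr3* were together in 73 of 166 AEC, *Cxcl12* alone in 79 and *Ackr3* alone in 7. As 152 of all 166 AEC had *Cxcl12* at this level, it was found about as often with as without the scavenger receptor. In E3 and E4 together rho between them was -0.36 over 119 cells, and within each cluster -0.18 (E3, 60 cells) and -0.04 (E4, 59 cells), while in E5 it was 0.25 (37 cells). In MSC-L, *Kitl* and *Cxcl12* had a rho of 0.12 over 53 young and 0.37 over 58 old cells. In SEC it was 0.48 over 70 young and 0.61 over 71 old cells, E1 included. These correlations are across cells of 1 sample and are descriptions only.

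Old and young cells were compared in each population, with fold changes as log2 ratios of CPM + 1. In MSC-L neither *Kitl* (-0.10) nor *Cxcl12* (-0.30) passed 2-fold, where 25.4% of 13143 genes did. In AEC, 1 of 4 members passed 2-fold beside 21.1% of all genes, and it was *Cxcr4* (-2.14), from 502 counts in young and 87 in old cells. *Kitl* (-0.02), *Cxcl12* (0.29) and *Ackr3* (0.11) of AEC had small ratios over all cells, which joined opposite changes in library-number ranges. In SEC, 1 of 4 passed beside 20.7% of genes, namely *Cxcr4* (3.97), mostly from the cell with hematopoietic markers. *Kitl* (0.50) and *Cxcl12* (-0.63) of SEC did not pass 2-fold, and their directions depended on the cells used. Without E1 both were higher in old cells, at 1.75 and 0.68, and in all cells of E7 both were lower, at -1.04 and -0.67. From young to old SEC the arterial list rose from 315 to 1111 CPM and the sinusoidal list fell from 14791 to 11469 CPM.

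The age difference of *Cxcl12* in AEC was not the same in the library-number ranges. In range 1 it was at 3759 CPM in 20 young and 1203 CPM in 20 old cells, in range 2 at 1792 in 40 and 3489 in 39, and in range 3 at 1682 in 24 and 3114 in 23. Range 1 thus moved opposite to the others. More old than young AEC of range 1 lay in E3, and the 1 young AEC of E1 held 24.9% of the young counts there. Clusters differed as well, taken over all their cells, with 8 old SEC in E3 or E4. From young to old, *Cxcl12* went from 198 to 115 CPM per kb of exon in E3. It went from 330 to 655 in E4 and from 392 to 689 in E5. *Kitl* in AEC went from 526 to 311 CPM in range 1, 461 to 538 in range 2 and 575 to 599 in range 3, and *Ackr3* from 247 to 403, 270.3 to 213 and 222 to 295 CPM, so each had 1 range that fell and 2 that rose. *Cxcr4* was lower in old AEC in each range, at 1.78 and 1.04 CPM in range 1, 22.8 and 3.92 in range 2, and 10.4 and 0 in range 3, but 9 young and 5 old cells at 10 CPM or more carried nearly all of it. In range 1 these were only 18 and 9 counts, with overlapping intervals (1.05 to 2.81 and 0.477 to 1.98). There, 1 young and 2 old cells reached 10 CPM, and 1 cell held 61.1% of the young counts, so no direction is clear in that range. By cluster *Cxcr4* was lower in old AEC of E3 and E4 together (17.2 and 0.677 CPM) and of E6 (23.9 and 0 CPM), with only 8 young and 2 old cells in E6. Among AEC of E5 it was higher in old cells (6.51 and 14.6 CPM).

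The largest differences with age lay in the osteoprogenitor gates. In mOPr, all 3 members that passed the count filter passed 2-fold, beside 44.5% of genes, with *Kitl* (5.29) and *Cxcl12* (5.07) higher and *Ackr3* (-2.24) lower in old cells. From young to old mOPr, *Kitl* went from 20.9 to 530 CPM in range 1 and from 0.788 to 395 CPM in range 2. *Cxcl12* went from 175 to 25709 and from 898 to 14200 CPM, and *Ackr3* from 378 to 1.68 and from 507 to 151 CPM. A single cell held 61.8% of the young *Kitl* and another 81.3% of the young *Cxcl12* counts, so these sizes are not known well. Of the *Ackr3* counts of young mOPr, 6331 of 6495 lay in 16 cells of the MSC-S-like clusters, where no old mOPr lay. Among mOPr in the OPr-like clusters M3 to M5 *Ackr3* was instead higher in old cells, at 198 against 36.9 CPM, with 76.5% of the old counts in 1 cell, so its direction depended on which clusters were compared. In OPr all 4 were higher in old cells, *Kitl* by 1.54, *Cxcl12* by 2.12, *Ackr3* by 2.76 and *Cxcr4* by 6.41, beside 45.2% of genes. A single cell held 65.0% of the *Kitl* counts of young OPr, and the ratios were 0.92 and 7.43 for *Kitl* and 1.63 and 7.88 for *Cxcl12* in ranges 1 and 2, so their size is not known well. *Ackr3* was lower in old OPr in range 1 (-3.45) and higher in range 2 (2.94), and *Cxcr4* stood at 0.07 without cells with hematopoietic markers. Other lineage markers moved in these gates as well, and their part in the result was not tested. The chondrogenic list fell from 27551 CPM in young to 864 CPM in old OPr, and the pericyte and smooth muscle list rose from 115 to 2255 CPM in OPr and from 186 to 2249.8 CPM in mOPr. Most counts of the ligands in old cells of these gates lay in the MSC-L-like clusters M1 and M2. Such cells were 3 of 44 young and 10 of 29 old OPr, and they held 99.3% and 99.9% of the *Cxcl12* and 99.5% and 99.8% of the *Kitl* counts. They were 2 of 26 young and 14 of 26 old mOPr, with 89.1% and 98.8% of *Cxcl12*, and with 0% and 95.4% of *Kitl*, of which young mOPr had 152 counts in all. Among OPr in the OPr-like clusters M3 to M5, *Cxcl12* was at 38.8 CPM in 36 young and 42.3 CPM in 19 old cells, and *Kitl* at 0.966 and 1.44 CPM, but 8 of these old and 0 of the young cells carried at least 7 hematopoietic markers. Among mOPr in these clusters both were higher in 12 old than in 8 young cells, *Cxcl12* at 476 against 39.2 CPM and *Kitl* at 43.3 against 12.2 CPM, with 78.6% and 71.1% of the old counts in 1 cell each. In MSC-S, 2 of 3 members passed beside 19.7% of genes, *Kitl* lower (-1.02) and *Cxcl12* higher (1.51), neither of which passed 2-fold without the highest cell of each age, at -0.99 and 0.77.

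Among 27 further genes of the pathways (4 on the SCF side, such as *Kit* and the protease *Adam17*, and 23 on the CXCL12 side), 23 passed the count filter in AEC, and 1 was higher and 7 lower past 2-fold in old cells, beside 21.1% of all genes past 2-fold either way. *Kit* fell from 70.3 to 10.8 CPM, *Mmp14*, a membrane protease, from 81.4 to 35.6, the arrestin gene *Arrb1* from 165 to 57.5 and the G protein gene *Gnai1* from 14.0 to 0.287. The sulfatase gene *Sulf2* rose from 40.9 to 83.4 CPM. Of all 14042 genes that passed the filter there, 1310 were higher and 1648 lower past 2-fold. The levels of these pathway genes are over all AEC and were not split by library-number range or by single cell. Marker lists moved as well from young to old AEC, and their part was not tested. The sinusoidal list fell from 1001 to 412 CPM and the LepR+ stroma list from 758 to 497 CPM, whereas the arterial list rose from 2902 to 3289 CPM. In SEC, 26 passed the filter, 5 higher and 2 lower, beside 20.7% of all genes. The median log2 ratio of the list was -0.38 in AEC and 0.16 in SEC, against -0.03 and 0.05 over all genes of these comparisons. In range 3, *Dpp4*, the protease that cuts CXCL12, was at 10.6 CPM in young SEC and 0.155 in young AEC, and at 17.2 and 0.314 CPM in old. *Rgs16*, which dampens G protein signals, was at 349.5 CPM in young AEC and 7.71 in young SEC. The transcription factor gene *Ebf3*, a marker of LepR+ stroma, stood at 1139 CPM in young and 1154 CPM in old MSC-L.

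The genes whose level over the 12 groups was most like that of each member were found by Pearson's r of log2(CPM + 1). For *Kitl* they were *Eepd1* (0.97), *Rbm39* (0.96), *Gm38036* (0.96), *Mmp17* (0.95) and *Zc3h7a* (0.95), and for *Cxcl12* *Wdr86* (0.97), *Alpk1* (0.96), *Arrdc4* (0.96), *St3gal6* (0.95) and *Rai14* (0.95). For *Cxcr4* they were *Pglyrp1* (0.96), *Parvg* (0.95), *Ptk2b* (0.95), *Fcho1* (0.94) and *Hdc* (0.94), all highest in old OPr. For *Ackr3* they were *Aldoa* (0.96), *Ifrd1* (0.93), *Bag3* (0.93), *Lsmem1* (0.93) and *Arl4d* (0.93). Over the 166 AEC, by Spearman's rho, *Kitl* was most like *Cxcl12* (0.42), *Jam2* (0.38), *Sptbn1* (0.37), *Cd36* (0.37) and *Cav1* (0.35), and *Cxcl12* most like *Slc26a10* (0.50), *Cd300lg* (0.42), *Kitl* (0.42), *Adgrf5* (0.41) and *Cd36* (0.41). The 2 ligands were each among the other's nearest genes there. *Ackr3* was most like *Gja5* (0.44), *Htra1* (0.43), *Ace* (0.40), *Prdm16* (0.39) and *Igf2* (0.39), and *Gja5* is an arterial gap junction gene of the marker list.

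The promoters of *Kitl* and *Cxcl12*, which varied together over the groups, and of *Ackr3*, which varied against them, are shown as 300 bases around the RefSeq start on GRCm38.p6 (chr10:100015571-100015870, plus strand; chr6:117168285-117168584, plus strand; chr1:90203730-90204029, plus strand). All 4 members matched the table, and the strand printed is that of the gene. Capitals mark the GC box GGGCGG, the CCAAT box CCAAT and the TATA box TATAAA on either strand. The 3 promoters hold no match of the EBF palindrome TCCCNNGGGA, the FOX core GTAAACA or the hypoxia core ACGTG, which 0.904%, 3.65% and 19.6% of 32851 promoters of this length hold. GC boxes were found 3 times in *Kitl*, 5 times in *Cxcl12* and 1 time in *Ackr3*, some of them overlapping, and 35.7% of promoters have one. The TATA box was found 1 time each in *Kitl* and *Ackr3*, and in 13.6% of promoters. A CCAAT box was found in *Ackr3* alone of the 3, and in 37.4% of promoters. A match describes letters only.
*Kitl*: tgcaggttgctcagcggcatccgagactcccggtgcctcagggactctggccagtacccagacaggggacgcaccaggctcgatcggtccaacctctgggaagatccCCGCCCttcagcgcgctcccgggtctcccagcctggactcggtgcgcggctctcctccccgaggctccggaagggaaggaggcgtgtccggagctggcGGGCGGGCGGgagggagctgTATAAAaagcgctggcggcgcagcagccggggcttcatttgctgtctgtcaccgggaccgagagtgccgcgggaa
*Cxcl12*: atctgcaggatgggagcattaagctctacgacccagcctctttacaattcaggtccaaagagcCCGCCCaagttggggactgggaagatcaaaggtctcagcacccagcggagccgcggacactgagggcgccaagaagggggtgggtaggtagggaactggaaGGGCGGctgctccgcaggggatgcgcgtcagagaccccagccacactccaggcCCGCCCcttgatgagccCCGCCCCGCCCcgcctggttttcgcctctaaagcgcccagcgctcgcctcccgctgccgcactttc
*Ackr3*: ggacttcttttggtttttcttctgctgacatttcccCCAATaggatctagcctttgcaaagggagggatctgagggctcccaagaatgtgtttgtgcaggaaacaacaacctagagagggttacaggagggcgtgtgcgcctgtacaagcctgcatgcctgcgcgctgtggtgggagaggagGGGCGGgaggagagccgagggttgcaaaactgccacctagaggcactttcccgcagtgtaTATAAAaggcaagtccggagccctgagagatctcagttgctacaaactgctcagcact

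Several limits apply to these values. The mouse of each cell is not known, so a difference between ages cannot be told from a difference between mice, and no interval here covers it. All SEC lie in 1 library-number range, and the populations were gated on Sca-1, LepR and CD105, so differences between them include the gate. Cells with transcripts of another lineage were counted by markers, which does not separate doublets from free RNA or from true expression. A low count of *Cxcr4* limits what can be said of it in any single population, and transcript levels do not give the amount of ligand or receptor protein.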

How the data were processed

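The files hold deposited read counts per gene and cell, which the authors made by mapping with GSNAP (2015-09-29) to GRCm38.p4 and unstranded counting in HTSeq, with no normalization. The 46078 gene entries included 270 repeated symbols, which were added up to 45771 nuclear and 37 mitochondrial genes. Every column was mapped to a sample, and age, population and ICGS cluster were read from the labels. CPM were computed here from nuclear counts, ratios got exact conditional binomial intervals, and shares Clopper-Pearson intervals, or for a share of 0 a floor of 3 cells. No test was made. For the background, a gene needed 100 counts and 5 cells with a count. The members and gene lists were chosen with earlier results of these data known. Genes named are the members, the pathway and marker lists, and the 5 genes nearest each member over groups (10 CPM or more in a group) and over AEC (a count in at least 25% of cells). No doublet caller was run; foreign markers per cell were counted instead. Exon lengths are from GENCODE M21 and promoters from RefSeq GRCm38.p6. The alternatives tried were size factors by median of ratios, averaging CPM over cells, thinning, a pseudocount of 0.1 CPM, single library-number ranges, ICGS identity, omission of the highest cell or of cells with foreign markers, no low-count filter, and omission of E1, added after the data were seen. Code was tested on simulated data and run with matplotlib 3.10.9, scipy 1.17.1, pandas 2.3.3 and numpy 2.4.6 under Python 3.11.15.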

Additional observations from a re-analysis of the deposited data

Results flagged for a closer look

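For 3 of the genes, old over young log2 ratios past 2-fold had opposite directions in different populations, a difference that was not tested. *Kitl* was higher in old OPr (1.54) and mOPr (5.29) and lower in old MSC-S (-1.02), where 7 of 8 alternatives lay under 2-fold, from -0.99 to -0.65. *Cxcr4* was higher in old OPr (6.41) and SEC (3.97), where cells with hematopoietic markers held most counts (0.07 and 0.75 without them), and lower in old AEC (-2.14), where no such cell was found. *Ackr3* was higher in old OPr (2.76), with most counts in 1 cell, and lower in old mOPr (-2.24). Both directions turned, to -3.45 in OPr of range 1, and in mOPr of the OPr-like clusters, where old cells were higher.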

How the results depend on the processing

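No paired analysis was possible because no result comes from a test and the labels name no mouse. Old and young cells were compared within library-number ranges instead, which the labels do not tie to mice. The number of members past 2-fold stayed within 1.5 times its main value in 62 recounts and left it in 10. Leaving out E1 was chosen after seeing the data. In MSC-S it was 2, and 1 with the mean of CPM over cells, with size factors, after thinning, in range 2 or in MSC-S-like clusters, and 0 in range 1 or without the highest cell. In SEC it was 1, and 0 without cells with hematopoietic markers, and 2 without cells with mesenchymal markers or without E1. Of the single log2 ratios, 106 stayed within their counting interval, 174 moved, and in 8 a difference past 2-fold of a gene that passed the count filter changed direction, and the cause was not tested. For old over young *Cxcl12* the ratio became -0.13 in MSC-S of range 1 and -1.15 in all cells of the OPr-like clusters, used in place of OPr and of mOPr, where 1 young MSC-L held 80.7% of the young counts. *Ackr3* became -3.45 in OPr of range 1 and 2.84 in the OPr-like clusters in place of mOPr, with 66.4% of the old counts in 1 cell, and *Cxcr4* -0.0403 for SEC in E7. For AEC over SEC in young cells *Cxcl12* became 1.44 with E3 and E4 against E7 and 0.54 without E1. The shares of all genes past 2-fold stayed within 1.5 times without the count filter in all 8 comparisons. Low counts limit *Cxcr4*, since 8 of the 12 groups held under 30 counts of it. Shares of cells with a count moved under thinning or the higher minimum in 49 cases and stayed in 47.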

Other observations

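Cells sorted as SEC did not all lie in the SEC-like cluster, and their place differed with age. In young SEC 59 of 70 cells were in E7 and none in E3 or E4, whereas in old SEC 44 of 71 were in E7, 12 in E6 and 8 in E3 or E4. Those 8 cells had *Kitl* at 638 CPM and *Cxcl12* at 8771 CPM and held 42.7% of the *Kitl* counts of old SEC. Within E7, sorted SEC had *Kitl* at 32.1 CPM in young and 14.7 CPM in old cells, and *Cxcl12* at 1191 and 748 CPM, so that both were lower in old cells there while *Kitl* over all SEC was higher. Only 14 of these 59 young and 6 of these 44 old cells had a *Kitl* count, and 1 cell held 32.1% and 53.2% of the counts.

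The 8 cells of E2, which the study names pericytes, had the 7 pericyte and smooth muscle markers at a sum of 31329 CPM, led by *Acta2*. They had *Kitl* at 388 CPM with a count in each cell, *Ackr3* at 107 CPM in 4 cells, *Cxcl12* at 287 CPM and no *Cxcr4*. The SCF receptor gene *Kit* went from 18.6 CPM in young to 218 CPM in old mOPr, from 2.05 to 216 CPM in OPr, where the hematopoietic list went from 25.3 to 11246 CPM and 8 of 29 old cells carried at least 7 of its markers, and from 0.570 to 14.3 CPM in MSC-L. The hematopoietic list also rose in mOPr, from 2.61 to 25.6 CPM, and in MSC-L, from 26.2 to 114 CPM. *Fcer1g* gave 23.3 CPM of the old mOPr sum and *Lyz2* 35.2 CPM of the old MSC-L sum. At least 7 of the markers were carried by 0 of 26 old mOPr and 0 of 58 old MSC-L. The part of hematopoietic cells in the *Kit* of these old populations was not tested.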
